A study of Mus musculus with 53 samples.

Results

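The cadherins and protocadherins of the embryonic mouse cortex are described here. They are surface proteins that hold cells together through repeated extracellular domains, and the genes were taken by name: protein-coding genes of GENCODE M21 (a mouse gene annotation) called Cdh with a number, or Pcdh with a number or with a, b or g. The rule found 92 genes, and 59 of them had a row among the 37991 gene IDs measured. These were 18 classical cadherins, 5 other cadherins, 12 non-clustered protocadherins, 22 genes of the protocadherin beta cluster and 1 ID each for the alpha and gamma clusters. The other 33 members, 13 of the alpha and 20 of the gamma cluster, are not analysed here.

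RNA was sequenced in 53 mouse libraries of 19 groups, to ask how the exchange of histones, under activity and plasticity, bears on transcription in cultured neurons, astrocytes and brain tissue. The values used here come from 1 group, cortical tissue of unstimulated C57bl/6 embryos at stage E16.5, to which the labels assign 3 libraries. The labels name no transgene, allele or agent for it, and do not say whether a library is 1 embryo or a pool. No condition is compared with another, since the remaining 50 libraries, from 18 groups, were not used here. The authors' values are 1 mean per gene, so no value below has a spread between libraries, and no test of a difference is given.

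Classical cadherins bind the same or a related cadherin on the next cell in a calcium-dependent way, and their tails tie to actin through the catenins. In the developing cortex N-cadherin holds the junctions that radial glia, the neural progenitors, form at the ventricular surface. Non-clustered protocadherins are single genes with weaker adhesion and roles in cell sorting and axon growth. In the alpha and gamma clusters each neuron uses a few of many alternative first exons. That gives the neuron's surface a combinatorial label for telling its own branches from those of other neurons.

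The deposited unit is RPKM, which scales reads to library size and to the kilobases of a gene. The kilobases were taken to be those of the whole gene with its introns. Taking genes with several exons and values in the range of 1 read, 662 of 729 values (90.8%) lay within 0.5% of what 1 read in 1 of the 3 libraries would give once multiplied by the span, against 35 of 382 (9.16%) with exon length. The values expected for 1 read were themselves found from low values multiplied by the span. Exon length was given none of its own, so these shares favour the span from the start. The low values multiplied by the span gave library sizes of 51.3, 64.8 and 71.6 M reads, 188 M reads in all. A second value is therefore given for each gene, the same library-scaled reads per kilobase of exon, called the exon-scaled value. It takes all counted reads to lie in exons and uses the lengths of GENCODE M21, a later annotation than that of the authors. Intervals below are exact 95% Poisson intervals of the estimated reads and cover counting error only. Markers of the tissue were set beside its label. Their lists were chosen with earlier results of these data known, so this is not an independent check. All 5 cortical neuron genes and all 5 radial glia genes were at 1 RPKM or more, and none of 5 thalamus and hindbrain genes was. Of the GABAergic genes 3 of 5 were, and none of 5 meninges and fibroblast genes or of 5 choroid plexus genes. By exon-scaled value all 5 GABAergic genes reached 1, as did all cortical neuron and radial glia genes. None of the thalamus and hindbrain, meninges and fibroblast, or choroid plexus genes did. In bulk tissue, fewer cells that use a gene and less RNA in each cell cannot be told apart.

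The promoters of 3 high members, Pcdh8, Cdh8 and Cdh24, and of a low one, Cdh26, are shown because they are the extremes of the exon-scaled values among the 22 members with a window. Each is 300 bases of the RefSeq sequence (build GRCm38.p6), from 250 bases before the annotated gene start to 50 bases after it, read 5′ to 3′ on the strand of the gene, with CG dinucleotides in capitals. The windows are chr14:79771263-79771562 on the minus strand for Pcdh8, chr8:99416422-99416721 on the minus strand for Cdh8, chr14:54641315-54641614 on the minus strand for Cdh24 and chr2:178430265-178430564 on the plus strand for Cdh26.
Pcdh8: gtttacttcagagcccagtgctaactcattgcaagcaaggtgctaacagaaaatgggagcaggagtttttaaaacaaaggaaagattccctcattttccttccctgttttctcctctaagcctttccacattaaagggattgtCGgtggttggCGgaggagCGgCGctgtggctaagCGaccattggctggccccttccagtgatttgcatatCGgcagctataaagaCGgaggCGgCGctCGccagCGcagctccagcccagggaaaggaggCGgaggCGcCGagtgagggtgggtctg
Cdh8: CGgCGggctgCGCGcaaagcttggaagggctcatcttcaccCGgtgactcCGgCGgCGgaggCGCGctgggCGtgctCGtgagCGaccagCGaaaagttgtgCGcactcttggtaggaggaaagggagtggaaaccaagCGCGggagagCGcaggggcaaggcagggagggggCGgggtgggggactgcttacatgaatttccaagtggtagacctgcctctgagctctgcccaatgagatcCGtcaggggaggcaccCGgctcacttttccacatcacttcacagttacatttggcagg
Cdh24: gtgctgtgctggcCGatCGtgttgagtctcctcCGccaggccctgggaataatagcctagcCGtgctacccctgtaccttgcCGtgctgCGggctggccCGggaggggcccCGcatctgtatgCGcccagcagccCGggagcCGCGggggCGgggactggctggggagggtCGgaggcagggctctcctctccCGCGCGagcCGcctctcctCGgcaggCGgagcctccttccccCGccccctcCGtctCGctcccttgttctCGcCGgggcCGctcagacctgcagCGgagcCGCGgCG
Cdh26: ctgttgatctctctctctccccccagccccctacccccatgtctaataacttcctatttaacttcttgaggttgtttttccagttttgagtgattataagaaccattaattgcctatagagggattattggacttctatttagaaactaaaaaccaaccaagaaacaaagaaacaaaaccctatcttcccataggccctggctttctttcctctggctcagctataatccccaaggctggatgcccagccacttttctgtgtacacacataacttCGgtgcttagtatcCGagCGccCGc

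The beta-cluster genes stood highest as a group by the deposited values, and lowest of the 3 larger groups once reads were set against exons. Their median was 1.17 RPKM, against 0.470 RPKM in the non-clustered protocadherins and 0.0582 RPKM in the classical cadherins, with 0.213 RPKM over all 20230 protein-coding genes. On the exon scale the medians were 1.17 for the beta cluster, 3.96 for the non-clustered protocadherins, 1.39 for the classical cadherins and 1.57 for all protein-coding genes. In this annotation the exons of each beta-cluster gene merge into a single block that covers the gene. Their median span is 3.71 kb, and both scales give them the same value. Classical cadherins had a median span of 149 kb around 4.56 kb of exon, and non-clustered protocadherins 76.3 kb around 9.63 kb.

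On the log2(RPKM + 0.1) scale the beta-cluster median exceeded that of the classical cadherins by 3.01 and that of the non-clustered protocadherins by 1.16. Per kilobase of exon these differences were -0.23 and -1.65, so both turned. The non-clustered protocadherins exceeded the classical cadherins on both scales, by 1.85 as deposited and 1.42 per kilobase of exon. Of the 59 members 20 stood at 1 RPKM or more, where 31.6% of all protein-coding genes did, and 1 stood at 10 RPKM or more, where 4.50% did. By exon-scaled value 35 of 59 reached 1, against 54.0% of protein-coding genes, and 5 reached 10, against 20.8%. The alpha and gamma IDs are in both counts, at the exon length of a single M21 gene each. Whether they stand for single genes or whole clusters is not settled. Of the 59, 1 was listed at 0, against 15.3% of protein-coding genes at 0.

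At 1 RPKM or more stood 2 of 18 classical cadherins, 5 of 12 non-clustered protocadherins and 12 of 22 beta-cluster genes. By exon-scaled values of 1 or more the counts were 11 of 18, 9 of 12 and 12 of 22.

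**Figure D1:**
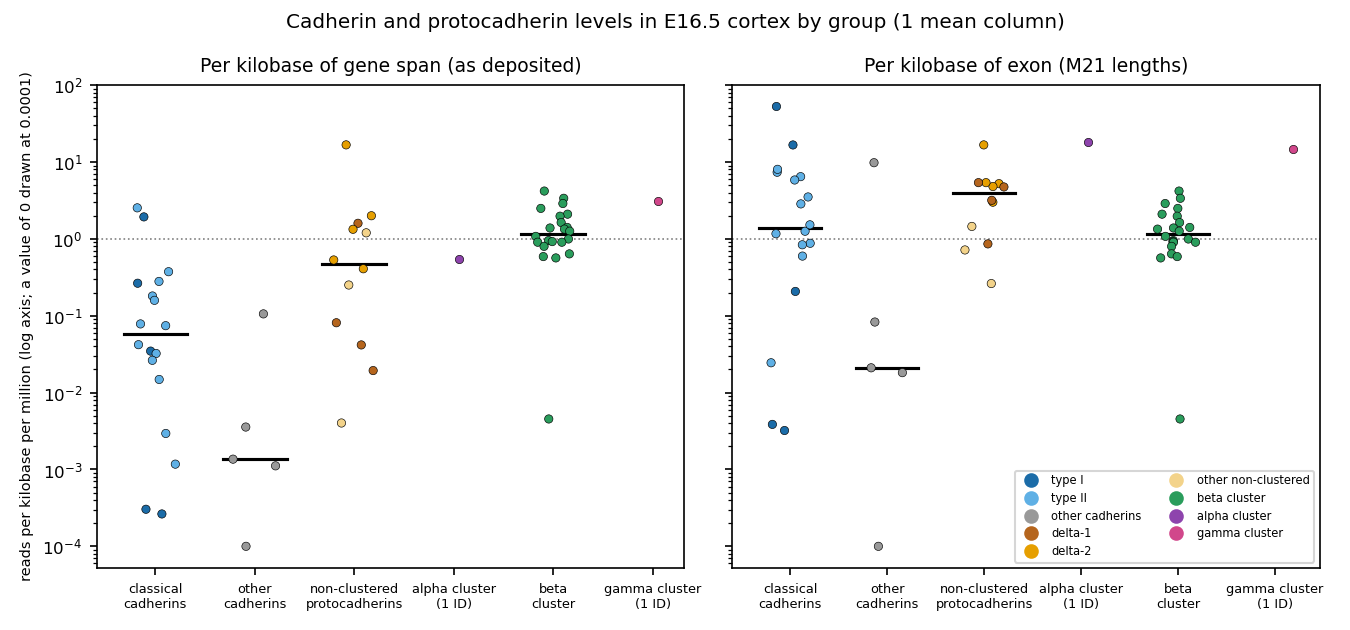
Each point is a gene, in library-scaled reads per kilobase on a log axis, by group, with the deposited values per kilobase of span on the left and exon-scaled values on the right; bars are group medians, the dotted line is 1, and Cdh16, listed at 0, is drawn at 0.0001. The beta-cluster median stays at 1.17 in both panels, while that of the classical cadherins moves from 0.0582 to 1.39.

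N-cadherin and R-cadherin made up most of the classical cadherin reads. Cdh2, the N-cadherin gene, stood at 1.93 RPKM (counting interval 1.92 to 1.95) and at 52.8 on the exon scale, the highest exon-scaled value of the members measured. An estimated 79982 reads lay behind it, 25.5% of those of the 59 members together. That share takes the alpha and gamma IDs at their own M21 spans, and would be lower with the spans of the whole clusters. Among protein-coding genes Cdh2 lay at percentile 78.3 by RPKM and 97.4 by exon-scaled value. Cdh4, the R-cadherin gene, whose protein can bind N-cadherin, stood at 0.265 RPKM and 16.7 on the exon scale. Cdh2 was thus 7.30-fold above Cdh4 by RPKM and 3.17-fold by exon-scaled value, and together they held 67.1% of the reads of the 18 classical cadherins.

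Of the other type I cadherins, Cdh1 and Cdh3 were near the limit of detection. Cdh1, the E-cadherin gene of epithelia, stood at 0.000264 RPKM (interval 6.04e-05 to 0.000735), a value that 3 whole reads in these libraries would give. Cdh3, the P-cadherin gene, stood at 0.000304 RPKM, with an interval of 5.41e-05 to 0.000945 that overlaps that of Cdh1. None of 5 epithelial marker genes reached 1 on either scale, and their highest, Epcam, stood at 0.0189 RPKM. Cdh15, the M-cadherin gene of muscle, stood higher, at 0.0347 RPKM and 0.207 on the exon scale, from an estimated 126.5 reads. None of 5 skeletal muscle markers reached 1 on either scale; they ranged from Des at 0.0416 RPKM down to Pax7 at 6.73e-05 RPKM. Whether reads of muscle are part of the Cdh15 value was not tested.

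Type II cadherins, many of which mark groups of neurons and brain nuclei, had 9 of 13 members at an exon-scaled value of 1 or more. Type I had 2 of 5, and 54.0% of all protein-coding genes reached that value. The 9 include Cdh5, a gene of blood vessels. Cdh24 was the highest type II gene by RPKM, at 2.54. By exon-scaled value it was Cdh8, a gene of cortical areas and their connections, at 8.04. Cdh24 is compact, with 10.1 kb of span, while Cdh8 spans 392 kb and stood at 0.159 RPKM. By exon-scaled value Cdh24 (7.37), Cdh11 (6.46), Cdh12 (5.84) and Cdh10 (3.51) followed Cdh8. Their deposited RPKM were 2.54, 0.374, 0.0323 and 0.181. Cdh11, the OB-cadherin gene, was 2.36-fold above Cdh8 by RPKM and 0.803 times Cdh8 by exon-scaled value, so that pair changed order with the length.

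A middle set of type II genes lay near 1 on the exon scale. Cdh9 stood at 1.53 (0.0421 RPKM), Cdh6 at 1.26 (0.0783 RPKM) and Cdh7 at 1.17 (0.0743 RPKM), and the counting intervals of Cdh6 and Cdh7 overlapped. Below 1 were Cdh22 at 0.877 (0.0263 RPKM), Cdh20 at 0.839 (0.0148 RPKM) and Cdh18 at 0.598 (0.00294 RPKM). Cdh19, a gene of the Schwann cell lineage, was the lowest at 0.0245 on the exon scale and 0.00117 RPKM, from an estimated 19.6 reads. Of 5 Schwann cell and neural crest markers none reached 1 RPKM and 2 reached an exon-scaled value of 1. Sox10, which oligodendrocyte-lineage cells also use, stood at 0.331 RPKM and 1.12 on the exon scale. Foxd3 stood at 0.00274 on both scales. The part of either lineage in the Cdh19 value was not tested.

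Cdh5, the VE-cadherin gene of blood vessels, stood at 0.280 RPKM and 2.85 on the exon scale. Of 6 endothelial markers 1 reached 1 RPKM and 5 an exon-scaled value of 1. They ranged from Cldn5 at 17.3 RPKM (17.3 on the exon scale) through Kdr at 0.570 (2.88) and Pecam1 at 0.133 (2.05) to Emcn at 0.0336 RPKM (0.566). The exon-scaled value of Cdh5 thus lay beside that of Kdr. How much of either comes from vessels was not tested.

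Of the 5 cadherins outside the classical types, only Cdh13 passed an exon-scaled value of 1. Cdh13 encodes T-cadherin, which is anchored by a lipid and has no tail inside the cell. Its gene spans 1041 kb, and it stood at 0.106 RPKM and 9.81 on the exon scale, with an estimated 20679 reads. Its span differed 1.14-fold between GENCODE M21 and RefSeq. Cdh23, which forms the tip links of inner-ear hair cells with the product of Pcdh15, stood at 0.00357 RPKM and 0.0829 on the exon scale. The intestinal gene Cdh17 was at 0.00136 RPKM, Cdh26 at 0.00112 RPKM, and the kidney gene Cdh16 was listed at 0. By the common rule that a count of 0 allows up to 3 reads, its limit is 0.000711 RPKM, and the upper end of the exact interval used for the other members is 0.000874 RPKM for Cdh16.

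**Figure D2:**
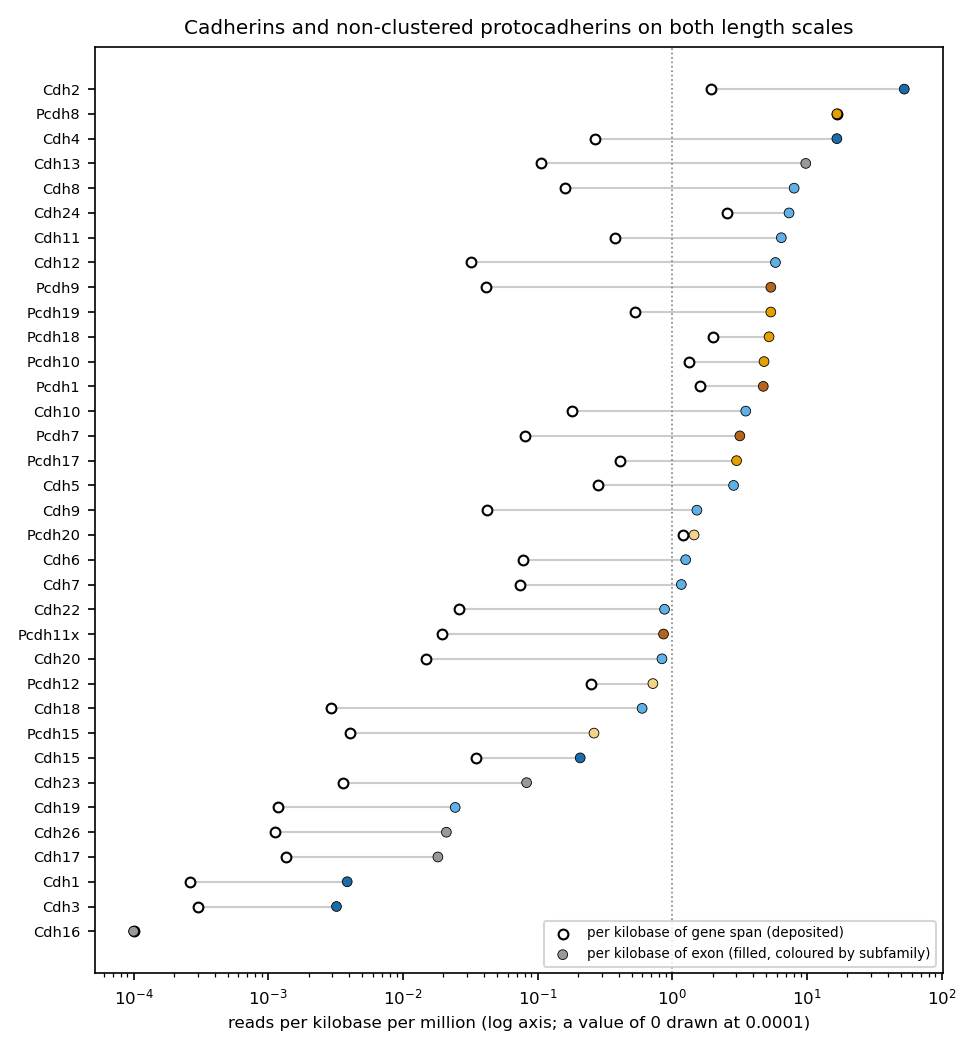
Each line is 1 of the 35 cadherins and non-clustered protocadherins, with its deposited value per kilobase of span (open) and its exon-scaled value (filled, by subfamily) in library-scaled reads per kilobase on a log axis; Cdh16, at 0, is drawn at 0.0001. Cdh2 leads on the exon scale at 52.8, and Pcdh8 at 16.7 has the same value on both.

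Pcdh8 was the highest of the 59 members by deposited value. Its product, also known as arcadlin or PAPC, is induced by activity in neurons and takes up N-cadherin from the surface. Pcdh8 stood at 16.7 RPKM (interval 16.45 to 17.00) on both scales, since GENCODE M21 merges its exons into 1 block that covers the gene. By reads it did not stand out: its estimated reads were 0.994 times those of Pcdh10, whose exons are longer. On the exon scale its interval overlapped that of Cdh4, and Cdh2 stood 3.16-fold above it.

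The delta-2 protocadherins, to which Pcdh8 belongs, held 65.9% of the reads of the 12 non-clustered genes. Their 5 members all passed an exon-scaled value of 1. Pcdh18 stood at 2.00 RPKM and 5.24 on the exon scale, Pcdh10, a gene tied to axon growth from the forebrain, at 1.33 RPKM and 4.81, and Pcdh19 at 0.532 RPKM and 5.40. Pcdh19 is the X-linked gene behind a form of epilepsy that mostly affects females. Pcdh17, which acts in axon extension and synapses, was the lowest at 0.409 RPKM and 3.004 on the exon scale. Beside Pcdh8, then, the 4 other delta-2 genes lay between 3.004 and 5.40 on the exon scale, while the type II cadherins ranged from 0.0245 to 8.04.

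Delta-1 protocadherins are long genes with a median span of 518 kb, and only Pcdh1, which spans 26.1 kb, reached 1 RPKM, at 1.60. On the exon scale Pcdh9 stood at 5.40, Pcdh1 at 4.74, Pcdh7 at 3.18 and Pcdh11x, on the X chromosome, at 0.861. The deposited values of Pcdh9, Pcdh7 and Pcdh11x were 0.0417, 0.0811 and 0.0194 RPKM. Pcdh9 thus lay below Pcdh1 by RPKM and above it by exon-scaled value. Of the 50-base words of Pcdh7, 20.4% are also found in 4932441J04Rik, a transcript of the opposite strand, from which its reads cannot be told apart without strand.

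The remaining 3 non-clustered genes lay below each of the delta-2 genes on the exon scale. Pcdh20 stood at 1.20 RPKM and 1.45, and Pcdh12, an endothelial gene also known as VE-cadherin-2, at 0.251 RPKM and 0.718. The endothelial markers given beside Cdh5 apply to it too, and the part of vessels in its value was not tested. Pcdh15, the tip-link partner of Cdh23, spans 1550 kb and stood at 0.00402 RPKM and 0.263. Over the cadherins and non-clustered protocadherins together, 19 of 35 spanned at least 100 kb, against 12.0% of protein-coding genes. Of these 19 genes 1 reached 1 RPKM and 13 an exon-scaled value of 1, while of the 16 shorter genes 6 and 8 did. Over all protein-coding genes of any span, 31.6% and 54.0% did. In the order by exon-scaled value, 14 of 34 neighbouring pairs had overlapping counting intervals, such as Pcdh9 and Pcdh19, or Pcdh10 and Pcdh1. The spread between embryos is not known and would be added to these intervals.

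The beta-cluster genes lay within a narrow range apart from the first one. Each beta gene encodes a complete protocadherin without the shared tail of the alpha and gamma proteins. Of the 22 genes 21 stood between 0.566 and 4.195 RPKM, and 16 lay within 2-fold of the median of 1.17. Pcdhb17 was the highest at 4.195 RPKM (interval 4.06 to 4.33), followed by Pcdhb20 at 3.38 and Pcdhb7 at 2.89. At the low end were Pcdhb13 at 0.589 and Pcdhb6 at 0.566 RPKM. Pcdhb1, the first gene along the cluster, stood at 0.00454 RPKM, an estimated 2.2 reads. The 5 genes with the most reads held 50.7% of the cluster's reads. Of 21 neighbouring pairs in the order of levels, 12 had overlapping counting intervals, among them Pcdhb13 and Pcdhb6.

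Along the cluster the levels had an uneven upward course. The first 11 genes had a median of 0.997 RPKM with 5 at 1 RPKM or more, and the last 11 a median of 1.39 RPKM with 7. Spearman's rho of level with order was 0.535 over the 22 genes, 0.465 without Pcdhb1, and 0.425 over the 15 genes whose spans agree within 1.1-fold between GENCODE M21 and RefSeq. Level had a rho of 0.446 with span over the same 22 genes. These genes share the same libraries and lie side by side, so each rho is a description. Of the 7 genes whose span differed, 6 were at 1 RPKM or more and 5 were in the last 11, Pcdhb17 (1.42-fold) among them. Which length the authors used for them is not known.

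Members of the beta cluster are close in sequence. A median of 4.48% of their 50-base words occur in a transcript of another gene, against 0% in the classical cadherins and in the non-clustered protocadherins. The highest share, 64.2%, was that of Pcdhb12, whose other gene is mainly the antisense transcript Gm37446. Pcdhb21 (11.3%) and Pcdhb22 (8.58%) overlap each other in this annotation. The share had a rho of 0.342 with the level over the 22 genes. The treatment of reads that fit several genes was not stated by the authors' notes, so single beta values are uncertain to that extent.

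**Figure D3:**
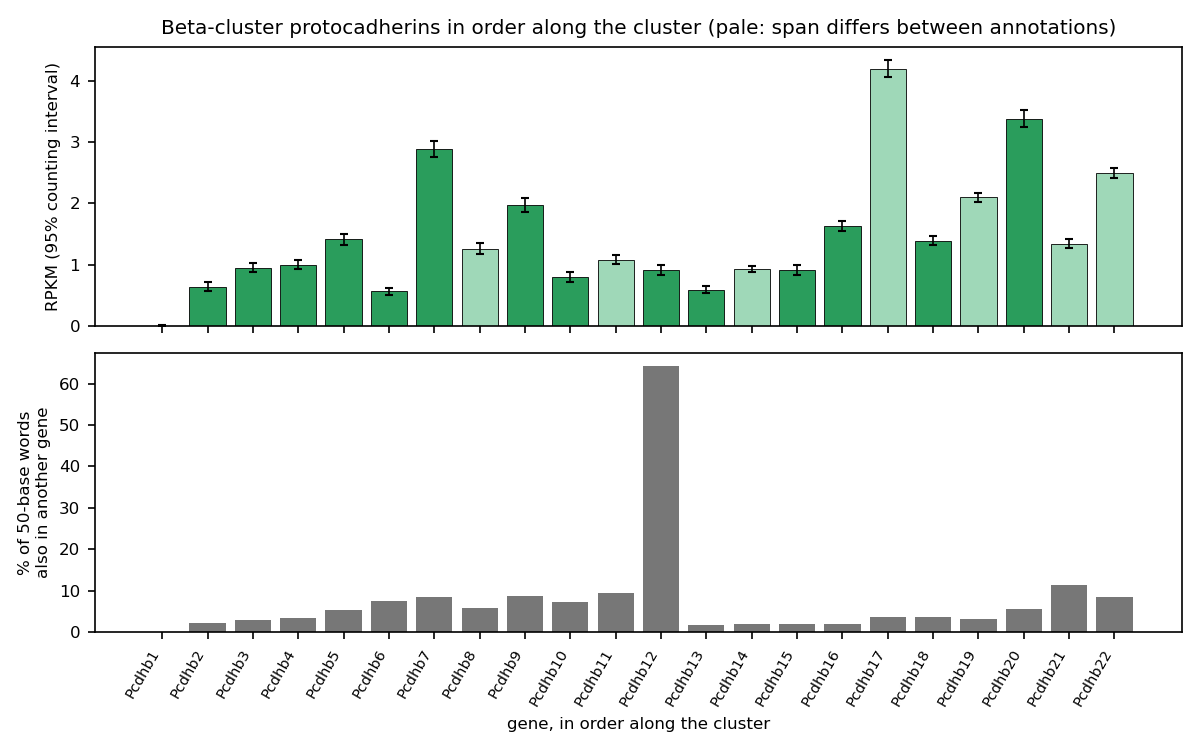
The upper panel gives the RPKM of the 22 beta-cluster genes in their order along the cluster, with 95% Poisson intervals of the estimated reads and pale bars where the span differs between annotations. The lower panel gives the percent of each gene's 50-base words found in a transcript of another gene. Pcdhb1 stands near 0, Pcdhb17 is the highest at 4.195 RPKM, and Pcdhb12 has the highest shared percent at 64.2.

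The alpha and gamma clusters can each be read only as 1 value. GENCODE M21 has 14 alpha genes, each with its own first exon and 3 common exons after it, and 21 protein-coding gamma genes of like build. The values used here list 1 ID for each cluster: ENSMUSG00000007440, which M21 calls Pcdha11, at 0.543 RPKM, and ENSMUSG00000023036, which M21 calls Pcdhgc4, at 3.08 RPKM. M21 gives the name Pcdha11 to another ID as well. Whether these IDs stood for single genes or for whole clusters in the authors' annotation could not be settled. No value can therefore be given to a single alpha or gamma isoform, including the C-type genes Pcdhac1, Pcdhac2, Pcdhgc3, Pcdhgc4 and Pcdhgc5.

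What these IDs hold in reads depends on the span behind them. With the M21 span of the ID, 182.5 kb, the alpha value corresponds to 99.1 RPM (reads scaled to library size without length), and with the span of all 14 genes, 257.5 kb, to 139.9. For gamma the same values were 82.4 RPM with 26.8 kb and 554 with the 180.1 kb of the whole cluster. The 22 beta genes summed to 144.1 RPM with M21 spans, which for 7 of them differ from RefSeq. The 3 clusters are therefore given no order by reads. With the M21 lengths of the IDs the exon-scaled values were 18.5 for alpha and 14.7 for gamma, above each of the beta genes. Those lengths are of a single gene each. If the IDs stand for whole clusters, the values would differ and that order need not hold. Of the 50-base words of the alpha and gamma IDs, 60.1% and 37.1% occur in transcripts of other genes, nearly all of them members.

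Genes that work with cadherins were taken from lists. Of 9 catenin-family genes, which link the cadherin tail to actin, 4 reached 1 RPKM and 8 an exon-scaled value of 1. Ctnnb1, the beta-catenin gene, stood at 26.5 RPKM, Ctnnd1, p120-catenin, at 3.68, and Arvcf at 1.40, with the heart alpha-catenin gene Ctnna3 lowest at 0.000142 RPKM. Ctnna2, the neuronal alpha-catenin gene, a long gene, was at 0.213 RPKM and 33.7 on the exon scale, above Ctnna1 at 11.3. It is named here after its value was seen. Of the more distant cadherin superfamily, 6 of 22 listed genes reached 1 RPKM and 10 an exon-scaled value of 1. Over all protein-coding genes 31.6% and 54.0% did. Celsr3 and Celsr2, which act in planar polarity and axon tracts, stood at 12.4 and 9.56 and Dchs1, the ligand of Fat4, at 7.58 RPKM, while the desmosomal gene Dsg3 was lowest at 0.000305 RPKM.

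Among regulators of choice in the protocadherin clusters, 6 of 11 reached 1 RPKM and 10 an exon-scaled value of 1. The cohesin genes Rad21 and Smc1a stood at 7.01 and 3.59 and the histone methyltransferase gene Setdb1 at 3.43 RPKM. Ctcf, whose protein pairs with cohesin at these promoters, stood at 2.95 RPKM, named after its value was seen. Dnmt3b, which methylates the alternative promoters, was the lowest at 0.114 RPKM. Of 6 enzymes that shed and cut cadherins, 4 reached 1 RPKM, with the gamma-secretase subunits Psenen at 15.1, Aph1a at 12.6 and Ncstn at 4.45 and Psen2 lowest at 0.207 RPKM. Of 8 partners of protocadherin tails 5 did, with the WAVE complex genes Nckap1 at 3.40, Wasf1 at 2.04 and Abi2 at 1.81 and the kinase gene Ptk2b lowest at 0.0816 RPKM. Over all protein-coding genes, 31.6% were at 1 RPKM or more and 54.0% at an exon-scaled value of 1 or more.

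Of the 59 members 22 had a RefSeq promoter window. The 37 without one include Cdh2, Cdh4 and Cdh13, which are high on the exon scale, and the whole beta cluster. The number of CG dinucleotides in a window of 300 bases ranged from 2 in Cdh10 to 38 in Cdh22, with a median of 13, against 15 over 16522 protein-coding genes. For genes with several windows the one with the most CG was taken. At least 15 CG were found in 8 of the 15 members with an exon-scaled value of 1 or more and in 2 of the 7 below it, Cdh22 and Cdh20, where 51.8% of protein-coding promoters have as many. Of the windows printed above, Cdh24 has 30, Cdh8 21, Pcdh8 14 and Cdh26 4. Spearman's rho of CG number was 0.453 with exon-scaled value and 0.368 with RPKM over these 22 genes. They share libraries and were not drawn at random. Cdh22, with the most CG at an exon-scaled value of 0.877, and Cdh10, with the fewest at 3.51, went against that course.

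**Figure D4:**
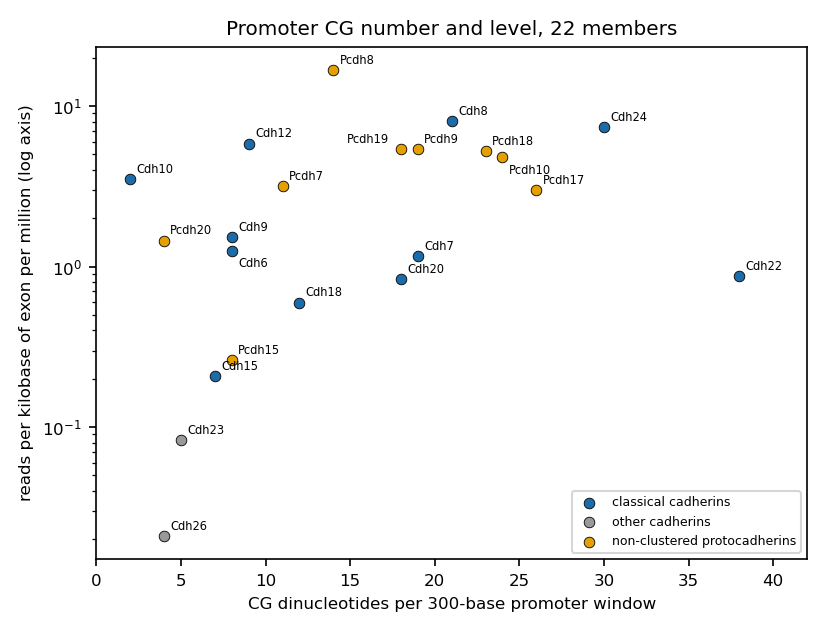
Each point is 1 of 22 members, with the CG dinucleotides of its 300-base RefSeq promoter window on the x axis and its exon-scaled value (library-scaled reads per kilobase of exon, log axis) on the y axis, coloured by group. Cdh26 lies lowest with 4 CG, Pcdh8 highest with 14, and Cdh22 farthest right with 38.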

How the data were processed

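RNA of 3 cortex libraries was given as 1 column of mean RPKM deposited by the authors. Per the submitters' processing notes the builds were mm9 and NCBIM37. The same notes list DESeq 1.16.0, HTSeq 0.6.0, Cuffdiff 2.0.2, TopHat2 2.0.9 and Bowtie2 2.1.0 without saying what each did. Strand and multi-mapping settings were not stated.

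Of 37991 gene IDs, 32938 matched GENCODE M21, made on a later build, from which names and lengths were taken (Python 3.11.15, pandas 2.3.3, numpy 2.4.6, scipy 1.17.1). Reads were estimated as RPKM times span times 188 M reads. Library sizes came from the 3 fullest peaks of low values multiplied by the span. That step was checked on data simulated with the same spans, which does not check the choice of length. Exon length is the union of exons. Words of 50 bases were compared over all M21 transcripts on both strands. The members, the gene lists and the classes of cadherins were chosen with earlier results of these data known. All cadherins and non-clustered protocadherins are named, of the beta cluster the 3 highest and 3 lowest, and of other lists the 3 highest and the lowest; others are said to be named after their values were seen or are named for a property other than their level. Of the superfamily list, Dchs2 was not matched. Some markers of the Schwann cell list are not reported here. Group medians were differenced on log2(RPKM + 0.1), which understates differences of low genes. With 1 mean column no test was possible. Alternatives were other pseudocounts, thresholds, lengths, means, and leaving out members.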

Additional observations from a re-analysis of the deposited data

How the results depend on the processing

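No paired analysis was possible because only 1 mean column was used, and for the same reason no replicate could be left out. The difference of medians between non-clustered protocadherins and classical cadherins, 1.85 on the log2 scale, was 0.47 with a pseudocount of 1, 2.85 with 0.01, 1.42 per kilobase of exon, 1.54 per kilobase of exon shared with no other gene, 1.46 with means and 1.84 without the highest members. That between the beta cluster and classical cadherins, 3.01, was in the same order 1.04, 4.15, -0.23, -0.11, 2.47 and 3.05. That between the beta cluster and non-clustered protocadherins, 1.16, was 0.56, 1.30, -1.65, -1.65, 1.0 and 1.21. Of these values 4 changed sign, and there only the length was changed. Leaving out the 8 members whose span differs over 1.1-fold between annotations, an alternative chosen after seeing the data, gave 2.74 and 0.89 for the latter differences and 6 beta-cluster genes at 1 RPKM or more in place of 12. At 2 RPKM the counts were 1 classical cadherin, 2 non-clustered protocadherins and 5 beta-cluster genes, and at 0.5 RPKM 21 beta-cluster genes and the 1 alpha ID. On both exon lengths 11 classical cadherins, 9 non-clustered protocadherins and the 1 alpha ID passed 1, in place of 2, 5 and 0. Of 49 values computed under alternatives, 13 counts stayed within 1.5 times and 4 differences were the same to 2 decimals. Those 4 differences could not change, since the settings behind them removed no member of the groups compared. Several of the 13 counts are of the 1 alpha or 1 gamma ID, or come from leaving out members where no span differed. The tally is therefore no measure of how stable the results are. Counting error is widest, relative to the value, for members of few reads, such as Cdh1, Cdh3 and Pcdhb1, and neighbours of many reads can overlap too, such as Pcdh8 and Cdh4.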

Other observations

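The span exceeded the exons most in Cdh18 (203-fold), Cdh12 (181-fold) and Pcdh9 (129-fold), and least in Pcdh8 and Pcdh20 (1.21-fold), with a median of 17.2-fold over the 35 cadherins and non-clustered protocadherins. Over these genes the order by RPKM and the order by exon-scaled value had a Spearman's rho of 0.811. Transcripts of the opposite strand in GENCODE M21 share 50-base words with several members. The 3 highest numbers for 1 pair of genes were 2186 for Pcdh7, 1878 for Pcdhb12 and 388 for Pcdh8, and pairs with Pcdha11, Pcdhb11, Pcdhb10, Cdh9, Pcdh10 and Cdh11 shared fewer. For the lowest members above 0, the best-fitting whole number of reads was 3 for Cdh1, 3 for Cdh3 (0.84% off) and 2 for Pcdhb1 (0.92% off). Of these only Cdh1 lay within the 0.5% used above for single reads.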
